A study of Mus musculus with 33 samples.

Results

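Lungs that had received 1 airway dose of AAV-hSPB 97 days earlier were compared with lungs of untreated mice kept on doxycycline, over the 773 mouse genes of an nCounter panel. The comparison rests on 8 of the 33 lung RNA samples of the series, 4 per group, chosen by their treatment label and not by any measured value. nCounter hybridises fluorescent barcodes to RNA molecules and counts them without amplification. All mice were CCSP-rtTA/(teto)7Sftpb/Sftpb-/- on the FVB/N strain. They lack their own Sftpb gene product and carry a transgene that makes it while doxycycline is fed. The treated group, AAV-hSPB single, got the vector into the trachea on day 0, lost doxycycline on day 7 and was harvested on day 97, after 90 days without the drug. The on-doxycycline group got no vector and no sham dose that the labels mention, and stayed on doxycycline to day 97. Each group held 2 female and 2 male samples of right lung. The groups therefore differ in vector and in doxycycline together, and the effects of these cannot be told apart. Because these mice depend on the transgene for Sftpb, the on-doxycycline lung is a rescued mutant and not a wild-type lung. The labels do not say that every sample is a separate animal, and the p-values cover only the spread among the samples, which may be technical.

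Surfactant protein B organises the lipid film that keeps alveoli open, and mice without it die of respiratory failure. Adeno-associated virus (AAV) carries a single-stranded DNA genome. Toll-like receptor 9 (TLR9) senses unmethylated CpG DNA in endosomes and signals through Myd88 to interferon, after which cells raise antiviral genes and antigen presentation. MHC class I molecules show peptides from inside the cell to CD8 T cells, with the immunoproteasome and the TAP transporter as their supply line. MHC class II molecules, loaded with the help of the H2-DM proteins, show peptides taken up by dendritic cells, macrophages and B cells to CD4 T cells. The comparison shows where such genes stood months after a dose, beside rescued lungs that never met the vector.

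Total recovered counts ran from 622739 to 756539 in AAV-hSPB single lungs and from 676906 to 832041 in on-doxycycline lungs, and 99 to 117 genes per lung in AAV-hSPB single and 100 to 110 in on-doxycycline had under 20 counts. For each lung the 8 dimmest control probes set the background, at 2 SD over their mean, and 69 genes stood at or below it in all 8 lungs. Lung tissue markers were high in every one of the 8 lungs. Ager, the alveolar type I cell marker, lay between 14.40 and 14.60 on the log2 scale in AAV-hSPB single and between 14.32 and 14.75 on doxycycline, and the endothelial Pecam1 lay between 12.21 and 12.51 against 12.32 to 12.68. All 5 measured liver transcripts had a lower mean in AAV-hSPB single, with a median log2 difference of -1.23, and 1 library carries most of this. H2-Q10, a class I gene known mostly from hepatocytes, stood at 4.01, 4.97, 4.45 and 4.49 in AAV-hSPB single, against 11.09, 4.25, 3.48 and 4.02 on doxycycline, the 11.09 being on-doxycycline replicate 1. Without that lung the H2-Q10 difference was 0.57. Between lungs, Pearson correlations over the 773 genes ran from 0.977 to 0.983 within AAV-hSPB single and from 0.949 to 0.98 within on-doxycycline.

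No gene passed the test after adjustment. Differences were tested with limma on the authors' log2 values, with the 24 day 97 lungs in 1 fit, and p-values were adjusted over the 773 genes by Benjamini and Hochberg at a threshold of 0.05. The smallest adjusted p was 0.0871, and 0 of 773 genes (0%) passed. At an unadjusted p under 0.05 stood 82 genes, 68 of them higher in AAV-hSPB single (8.8% of the panel) and 14 lower (1.81%). With voom, which weights the recovered counts by their precision, 3 genes passed (0.388%). All 4 AAV-hSPB single lungs lay above all 4 on-doxycycline lungs for 38 genes (4.92%) and below them for 6 (0.776%). The fit bounds most differences: for 579 genes (74.9%) the 95% confidence interval of the difference lay within 1 log2 unit of 0, that is under a 2-fold change either way, and the median half-width of the interval was 0.425.

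The direction of the small differences turned with lungs scaled to their median gene, but not with all 12 reference genes. The mean was higher in AAV-hSPB single for 532 genes (68.8%), with a median log2 difference of 0.09 over all genes. With each lung scaled to its median gene the median difference was -0.06, a shift of the whole panel. The genes at an unadjusted p under 0.05 were then 23 higher and 39 lower. With all 12 reference genes the median was 0.075, and 58 genes were higher and 16 lower. The lists and genes below are therefore to be read against the panel median, and where the scaling turns a direction this is stated.

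**Figure D1:**
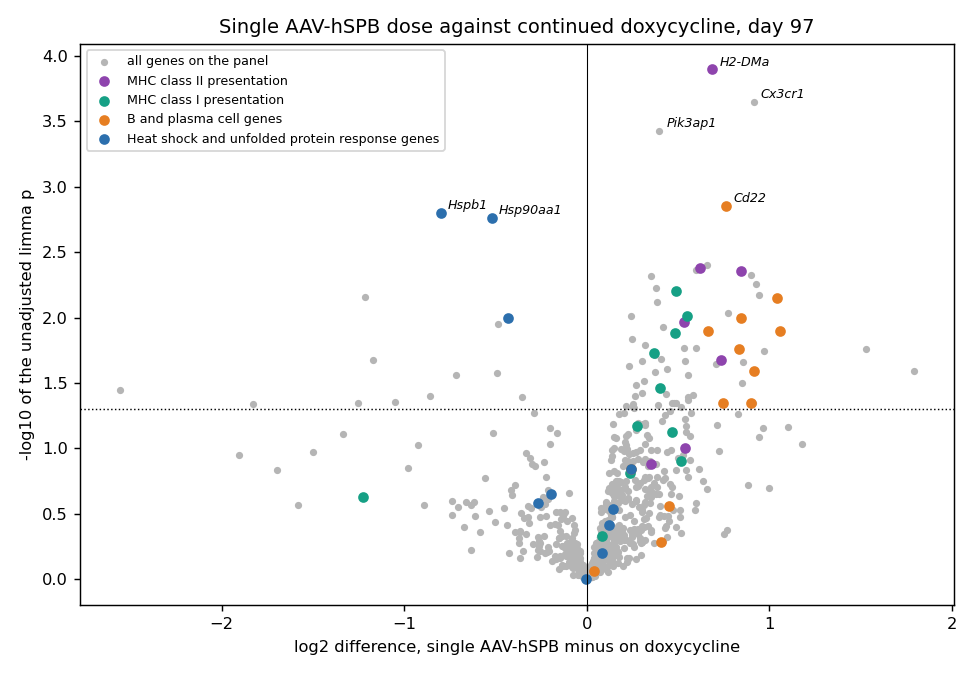
Log2 difference (AAV-hSPB single minus on-doxycycline, x axis) against -log10 of the unadjusted limma p (y axis) for each of the 773 genes, with 4 gene lists in colour and a dotted line at an unadjusted value of 0.05. H2-DMa (0.69), Cx3cr1 (0.91) and Pik3ap1 (0.40) stand topmost on the higher side, and Hspb1 (-0.80) and Hsp90aa1 (-0.52) on the lower side. None passes after adjustment.

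The spread within the on-doxycycline group bears on these counts. Among the 68 genes higher in AAV-hSPB single at an unadjusted p under 0.05, on-doxycycline replicate 3 was the highest lung of its group for 48 (70.6%, against 32.2% of all genes) and replicate 4 the lowest for 44 (64.7%, against 41.5%). Without replicate 3, 11 genes passed. Of these 10 were higher, among them H2-DMa, Aim2, Cd22, Cx3cr1, Pdcd1lg2, Ccl8, Cd8a, Tlr1 and Pik3ap1, and Hsp90aa1 was lower in AAV-hSPB single. Without replicate 4 none passed and 46 genes had an unadjusted p under 0.05. The rows of the deposited table give each lung a further identifier whose meaning is not stated, with a low and a high number series. The high series held 2 of 4 AAV-hSPB single lungs (replicates 2 and 4) and 1 of 4 on-doxycycline lungs (replicate 4). With the series as a covariate, an alternative added after the data were seen, 0 genes passed, 74 had an unadjusted p under 0.05, and H2-DMa differed by 0.69, Cx3cr1 by 0.94 and Pik3ap1 by 0.41.

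MHC class II genes lay above the panel as a group. All 7 measured members had a higher mean in AAV-hSPB single, 5 with an unadjusted p under 0.05 (8.8% of the panel), and their median log2 difference was 0.62 against 0.09 for all genes. It was 0.47 with lungs scaled to the median gene, against -0.06 for all genes, and all 7 kept their direction. None passed after adjustment.

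The promoters of 3 of these genes are shown because they carry, within the same short stretch, the paired elements by which class II genes are known to be switched on together. The X box is bound by the RFX complex and the Y box, a CCAAT box read on the opposite strand, by NF-Y, and both serve the class II transactivator CIITA. The sequences are RefSeq promoters of the GRCm38.p6 build, from the C57BL/6J strain, all on the plus strand of chromosome 17. Each runs 5′ to 3′ from base -100 to base 50 relative to the start of transcription, with the X box core (CTAGNAAC) and then the Y box core (GATTGG) in capitals.
H2-Eb1 (chr17:34305767-34305916): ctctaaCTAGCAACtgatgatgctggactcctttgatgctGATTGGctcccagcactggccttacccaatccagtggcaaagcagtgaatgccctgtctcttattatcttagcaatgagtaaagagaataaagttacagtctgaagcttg
H2-DMb1 (chr17:34153091-34153240): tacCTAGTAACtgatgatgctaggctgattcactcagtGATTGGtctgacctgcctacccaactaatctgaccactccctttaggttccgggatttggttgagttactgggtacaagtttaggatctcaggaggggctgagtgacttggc
H2-Ob (chr17:34238805-34238954): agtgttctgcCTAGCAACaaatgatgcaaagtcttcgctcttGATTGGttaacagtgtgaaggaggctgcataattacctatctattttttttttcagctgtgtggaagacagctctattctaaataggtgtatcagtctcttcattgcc
The Y box core began at base -60 in H2-Eb1, -62 in H2-DMb1 and -58 in H2-Ob, and the X box core at -94, -97 and -90. Searched on both strands of the 300-base RefSeq promoters, of 6 class II list members with an entry 3 held CTAGNAAC and 5 held GATTGG, against 3.62% and 16.1% of all 32851 promoters. In the class I and heat shock lists 5 of 9 and 4 of 7 promoters held GATTGG, and 0 held CTAGNAAC. The H2-DMa promoter held GATTGG at base -199 and no CTAGNAAC. A match in these letters describes the sequence and shows no binding.

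H2-DMa, a subunit of the dimer that exchanges peptides on class II molecules, had the smallest p of the panel. Its level was 9.74, 9.98, 9.93 and 9.98 in AAV-hSPB single, against 9.33, 8.92, 9.55 and 9.08 on doxycycline. Every AAV-hSPB single lung was above every on-doxycycline lung, and on-doxycycline replicate 3 came nearest. The difference was 0.69 ± 0.14 (SE, 1.61-fold, 95% interval 1.31 to 1.99, limma adjusted p = 0.0871).

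H2-Eb1, a beta chain of the class II molecule, stood at 5.53, 6.43, 6.17 and 6.39 in AAV-hSPB single, against 5.39, 4.98, 5.71 and 5.06 on doxycycline. Only AAV-hSPB single replicate 1 fell inside the on-doxycycline range. The difference was 0.84 ± 0.26 (limma adjusted p = 0.306).

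H2-Ab1, the other beta chain, was far more abundant, at 12.23, 12.48, 12.70 and 12.67 in AAV-hSPB single against 11.95, 11.55, 12.26 and 11.83 on doxycycline. The groups touched at 1 pair of lungs, AAV-hSPB single replicate 1 and on-doxycycline replicate 3. The difference was 0.62 ± 0.19 (limma adjusted p = 0.306). H2-DMb1, partner of H2-DMa, differed by 0.53 without overlap. H2-Ob, whose product restrains H2-DM and is found mainly in B cells, differed by 0.73 with overlap, and H2-DMb2 and the cathepsin gene Ctss by 0.54 and 0.35.

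**Figure D2:**
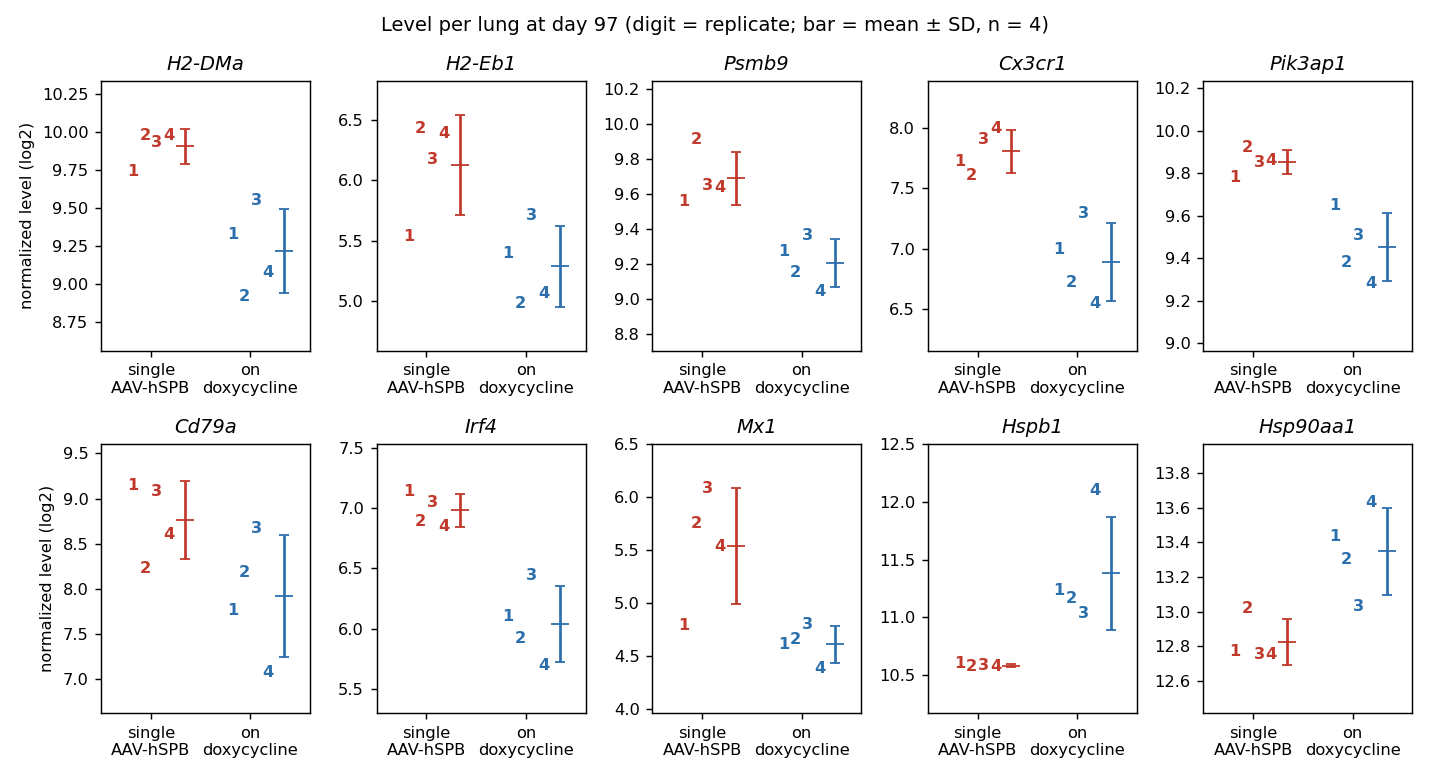
Normalized log2 level (y axis) of 10 genes in each AAV-hSPB single lung (left, red) and each on-doxycycline lung (right, blue), where each digit is the replicate and bars give the mean ± SD of 4 lungs. The groups do not overlap for H2-DMa, Psmb9, Cx3cr1, Pik3ap1, Irf4, Hspb1 and Hsp90aa1. On-doxycycline replicate 3 is the highest of its group for H2-DMa, H2-Eb1, Psmb9, Mx1, Cx3cr1 (7.29), Cd79a (8.67) and Irf4 (6.44).

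The class I pathway showed smaller differences of the same sign. Of 11 measured members 10 had a higher mean (68.8% of the panel), 5 with an unadjusted p under 0.05 (8.8% of the panel). The median was 0.40 (0.25 with lungs scaled to the median gene). H2-Q10 was the exception, for the lung named above. In 5 members all 4 AAV-hSPB single lungs lay above all 4 on-doxycycline lungs, against 4.92% of the panel.

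Psmb9, an inducible subunit of the immunoproteasome, stood at 9.56, 9.91, 9.65 and 9.64 in AAV-hSPB single against 9.27, 9.15, 9.36 and 9.04 on doxycycline. The groups did not overlap. The difference was 0.49 ± 0.16 (1.40-fold, 95% interval 1.11 to 1.77, limma adjusted p = 0.306). Tap1, a subunit of the peptide transporter that shares its promoter region with Psmb9, was at 8.96, 9.42, 8.88 and 9.03 in AAV-hSPB single against 8.54, 8.36, 8.90 and 8.30 on doxycycline. On-doxycycline replicate 3 reached into the range of the AAV-hSPB single lungs, and the difference was 0.55 ± 0.19 (limma adjusted p = 0.326). Psmb8 differed by 0.37, the classical class I gene H2-D1 by 0.40, the non-classical H2-M3 and H2-T23 by 0.48 and 0.47, and Tap2 by 0.27. H2-D1, H2-M3, H2-T23 and Tap2 separated the groups without overlap. H2-K1, the other classical gene, differed by 0.23 and Nlrc5, the class I transactivator, by 0.52, with 95% intervals that include 0.

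Genes that interferon-gamma induces had a higher mean in all 13 measured cases (68.8% of the panel), with a median of 0.45. Only Gbp3 (0.60) and Socs1 (0.53) had an unadjusted p under 0.05, both higher (8.8% of the panel). With lungs scaled to the median gene the median was 0.29 and 11 of 13 were higher, and without on-doxycycline replicate 4 the median was 0.28. Cxcl9, a ligand of the T cell receptor CXCR3, was at 5.60, 6.39, 6.34 and 6.16 in AAV-hSPB single against 5.74, 3.94, 7.07 and 3.02 on doxycycline. The on-doxycycline lungs spanned 4.05 log2 units around the narrow AAV-hSPB single range, and 2 of them were not above background. The difference of 1.18 had a 95% interval of -0.21 to 2.57. Gbp2 (0.33), Gbp5 (0.55) and Cxcl10 (0.45, or 0.15 without on-doxycycline replicate 4) had intervals that include 0. Ifng itself was at or below background in all 8 lungs.

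Type I interferon-stimulated genes were close to the panel as a whole. Of 32 measured members 24 had a higher mean, the median was 0.11, and it was -0.05 with lungs scaled to the median gene, when 14 were higher. An unadjusted p under 0.05 was reached by Mx1, Zbp1 and Samhd1 on the higher side (8.8% of the panel) and Rsad2 on the lower (1.81%).

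Mx1, an antiviral GTPase, was at 4.79, 5.75, 6.08 and 5.53 in AAV-hSPB single and at 4.61, 4.66, 4.80 and 4.38 on doxycycline. All but AAV-hSPB single replicate 1 were clearly above the on-doxycycline lungs. The difference was 0.93 ± 0.30 (limma adjusted p = 0.306). Zbp1, a sensor of Z-form nucleic acid, was at 6.34, 6.86, 6.79 and 6.61 against 6.05, 5.85, 6.34 and 5.24, touching at 6.34. Samhd1, which depletes deoxynucleotides, differed by only 0.23 but without overlap. Rsad2, which encodes the antiviral enzyme viperin, went the other way by -0.71. Isg15 and Ifit1, standard reporters of a type I response, differed by 0.34 and -0.25, with intervals of -0.20 to 0.89 and -0.70 to 0.21.

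Among 29 Toll-like receptor and nucleic acid sensor genes 25 had a higher mean (68.8% of the panel), with a median of 0.13. Of the 29, 4 had an unadjusted p under 0.05, all higher (8.8% of the panel). These were Tlr1 (0.66), a partner of TLR2 for bacterial lipoproteins, and 3 sensors of intracellular nucleic acid, Aim2 (0.60), Zbp1 (0.77) and Cgas (0.48). With lungs scaled to the median gene only 12 of the 29 were higher. Tlr9 was at 5.73, 5.61, 6.40 and 6.30 in AAV-hSPB single and at 5.43, 5.25, 6.20 and 4.98 on doxycycline. The ranges overlapped and the difference was 0.55 with an interval of -0.04 to 1.13. The inflammasome list overlaps with the sensors and added, among others, Casp1 (0.43) and Bax (0.25), each separated without overlap, and the death receptor gene Tnfrsf10b (-0.49), which was lower in all 4 AAV-hSPB single lungs.

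B cell genes made up the list with the highest median. All 13 measured members had a higher mean, 9 with an unadjusted p under 0.05 (8.8% of the panel), and the median was 0.76, or 0.61 with lungs scaled to the median gene. In tissue RNA more cells of a type cannot be told apart from more RNA per cell. With that scaling 12 of 13 were higher. On-doxycycline replicate 4 had the lowest mean level of the list, and without it 2 of 13 had an unadjusted p under 0.05.

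Cd79a, a signalling chain of the B cell receptor, was at 9.15, 8.23, 9.08 and 8.60 in AAV-hSPB single against 7.76, 8.18, 8.67 and 7.08 on doxycycline, a difference of 0.84 ± 0.30 (1.79-fold, limma adjusted p = 0.326). The inhibitory receptor Cd22 was at 7.44, 7.06, 7.53 and 7.53 against 6.56, 6.65, 7.24 and 6.06, a difference of 0.76 ± 0.21 (limma adjusted p = 0.222). The limma adjusted p was 0.0158 without on-doxycycline replicate 3 and 0.67 without replicate 4. In both genes on-doxycycline replicate 3 was again the only lung to reach past the lowest AAV-hSPB single lung. Cd79b (0.92), Blk (0.83), Ms4a1 (0.90), Spib (0.66) and Prdm1 (0.74) had unadjusted p-values under 0.05.

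Irf4, a factor needed for plasma cell and effector T cell differentiation, was at 7.14, 6.89, 7.05 and 6.85 in AAV-hSPB single and at 6.10, 5.92, 6.44 and 5.69 on doxycycline. Its groups did not overlap, and the difference was 0.94 ± 0.31 (limma adjusted p = 0.306). Tnfrsf17, the BCMA receptor of plasma cells, had a difference of 1.06, but all 4 on-doxycycline lungs and 2 of 4 AAV-hSPB single lungs were not above background. With values raised to the background it was 0.06.

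T cell genes stood near the panel. Of 30 measured 25 had a higher mean, the median was 0.15 (-0.01 with lungs scaled to the median gene), and only Cd2, an adhesion receptor of T and NK cells, had an unadjusted p under 0.05, with a difference of 0.44 and no overlap between the groups. Cd4 itself differed by 0.11 and Cd28, the costimulatory receptor, by 0.32, with intervals that include 0. Cytotoxic, NK and CD8 genes had a higher mean in 19 of 21 cases and a median of 0.32. With lungs scaled to the median gene 15 of 21 were higher with a median of 0.16, and without on-doxycycline replicate 4 the median was 0.18. Ncr1, the NKp46 receptor that marks NK cells, was at 8.59, 8.66, 8.00 and 7.89 in AAV-hSPB single against 7.80, 7.96, 7.03 and 7.52 on doxycycline. The ranges overlapped by 1 lung and the difference was 0.71 ± 0.29. Klrd1, another NK receptor gene, differed by 0.51. Cd8a differed by 0.97, but 3 of 4 on-doxycycline lungs and 1 AAV-hSPB single lung were not above background, and with values raised to it the difference was 0.02. Of 11 checkpoint genes 9 had a higher mean. Pdcd1lg2, the second ligand of PD-1, was at 6.18, 5.64, 6.25 and 6.25 against 4.61, 5.64, 6.11 and 4.38, with on-doxycycline replicates 1 and 4 low.

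Cx3cr1, the fractalkine receptor of patrolling monocytes, some macrophages and effector lymphocytes, had the second smallest p. It was at 7.72, 7.60, 7.90 and 7.99 in AAV-hSPB single against 6.99, 6.72, 7.29 and 6.55 on doxycycline. The groups did not overlap. The difference was 0.91 ± 0.20 (1.88-fold, 95% interval 1.40 to 2.53, limma adjusted p = 0.0871). The limma adjusted p was 0.0467 with voom, 0.24 with lungs scaled to the median gene and 0.31 with the compared groups alone. Pik3ap1, the PI3-kinase adaptor BCAP of B cells and myeloid cells, was at 9.78, 9.92, 9.85 and 9.86 against 9.65, 9.38, 9.51 and 9.28. Its lungs agreed closely within AAV-hSPB single, and the difference was 0.40 ± 0.09 (limma adjusted p = 0.0958). With voom the limma adjusted p was 0.0467, with lungs scaled to the median gene 0.474 and with the compared groups alone 0.31. Among lymphocyte signalling genes, Map2k7 (0.35) and Evl (0.38) also separated the groups, and Prkcd differed by 0.24.

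Other myeloid lists were mixed. Of 13 macrophage genes 11 had a higher mean with a median of 0.20, and only Csf1r (0.31), the receptor for the macrophage growth factor, had an unadjusted p under 0.05. Of 17 monocyte and neutrophil genes 6 had a higher mean, the median was -0.27, and the only unadjusted p under 0.05 belonged to the monocyte chemokine receptor Ccr2, which differed by 0.56. The neutrophil chemokine receptor Cxcr2 (-0.74) and the alveolar macrophage receptor Marco (-0.89) had wide intervals that include 0. Of 37 cytokines and chemokines 28 had a higher mean, with Ccl2 at 0.20 ± 0.74. Ccl8, a monocyte and T cell chemokine, was at 7.56, 8.45, 8.69 and 8.28 against 6.65, 5.64, 8.90 and 5.69, so that on-doxycycline replicate 3 exceeded every AAV-hSPB single lung. Il23a and Il17f, also with an unadjusted p under 0.05, were at or below background in all 8 lungs and give no fold.

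**Figure D3:**
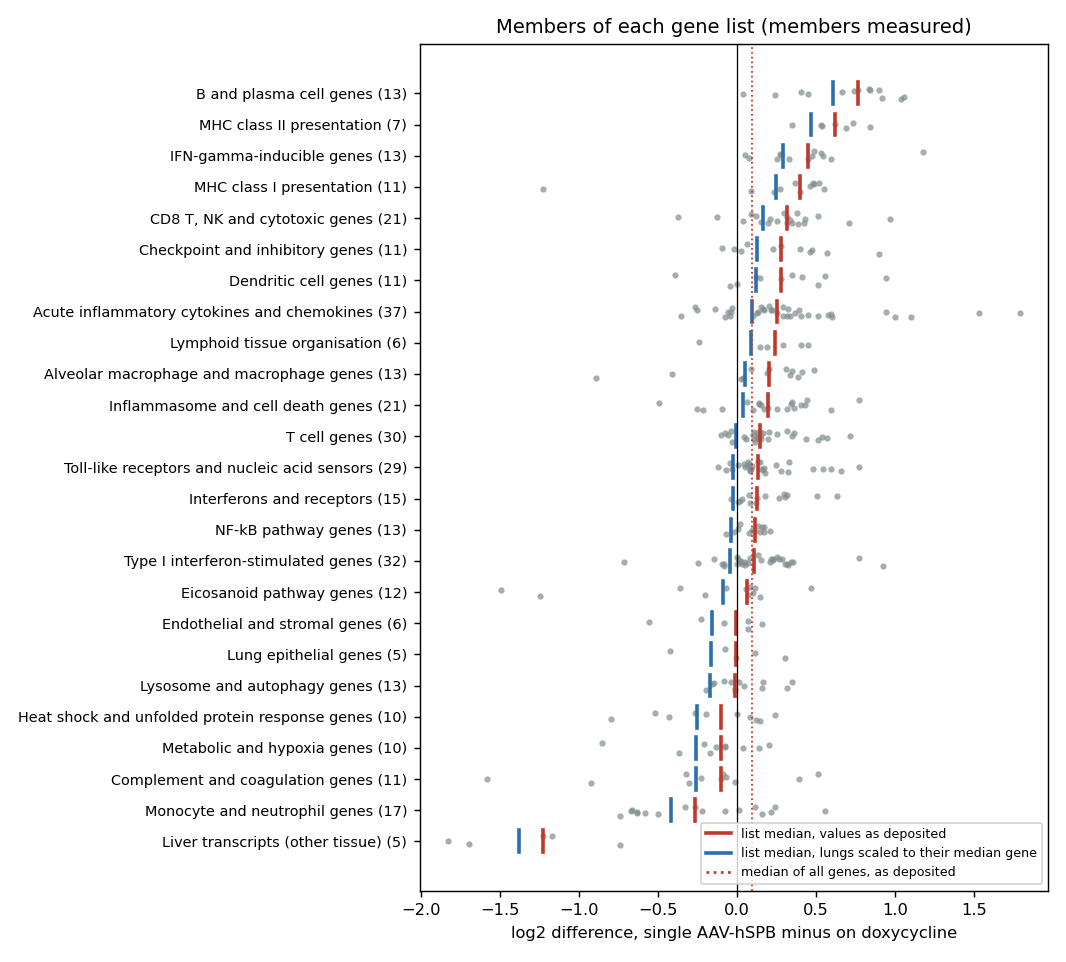
Log2 difference (AAV-hSPB single minus on-doxycycline, x axis) of each measured member (grey points) of 25 gene lists, with the number of members in brackets. Red bars mark list medians with the values as deposited, blue bars those with lungs scaled to their median gene, and the dotted line the median of all genes (0.09). B cell (0.76), class II (0.62) and interferon-gamma-inducible genes (0.45) lie highest and liver transcripts (-1.23) lowest.

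Among the genes that were lower in every AAV-hSPB single lung were 3 cytosolic chaperones. Of 10 measured heat shock and unfolded protein response genes, 3 had an unadjusted p under 0.05, all lower in AAV-hSPB single (1.81% of the panel), and these 3 were among the 6 genes of the panel (0.776%) with every AAV-hSPB single lung below every on-doxycycline lung. The median of the list was -0.10, since the 7 other members lay between -0.27 and 0.24.

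Hspb1, a small heat shock protein that binds unfolding proteins, was at 10.60, 10.57, 10.58 and 10.57 in AAV-hSPB single against 11.23, 11.16, 11.03 and 12.10 on doxycycline. The AAV-hSPB single lungs were almost identical, and on-doxycycline replicate 4 was high. The difference was -0.80 ± 0.22 (0.575-fold, 95% interval 0.419 to 0.789, limma adjusted p = 0.222). Hsp90aa1, the inducible HSP90, was at 12.77, 13.02, 12.75 and 12.75 against 13.43, 13.30, 13.03 and 13.63. AAV-hSPB single replicate 2 came within 0.01 of on-doxycycline replicate 3, and the difference was -0.52 ± 0.14 (limma adjusted p = 0.222). Hsp90ab1, the constitutive HSP90, was at 11.37, 11.36, 11.56 and 11.54 against 12.05, 11.78, 11.66 and 12.05, a difference of -0.43 ± 0.15 (limma adjusted p = 0.326).

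The Hspb1 promoter is shown because heat shock factor 1 is known to drive these chaperones through inverted GAA repeats. It is taken from RefSeq on GRCm38.p6, plus strand, and runs 5′ to 3′ from base -150 to base 50, with both matches to GAANNTTC in capitals.
Hspb1 (chr5:135887769-135887968): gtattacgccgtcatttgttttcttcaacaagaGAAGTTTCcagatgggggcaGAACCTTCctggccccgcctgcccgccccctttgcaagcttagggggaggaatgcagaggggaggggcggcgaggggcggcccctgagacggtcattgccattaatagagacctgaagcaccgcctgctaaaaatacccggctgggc
The matches began at bases -117 and -97. GAANNTTC, which reads the same on both strands, occurs in 7.86% of the 32851 promoters and in 1 of 7 promoters of the list that were in the table. Hsp90aa1 and Hsp90ab1 had no entry.

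The other genes lower in AAV-hSPB single at an unadjusted p under 0.05 included liver transcripts and metabolic genes that were high in on-doxycycline replicate 1. Serpina1a, the liver antitrypsin, was at 9.04, 9.63, 8.91 and 8.67 in AAV-hSPB single against 15.41, 9.54, 9.59 and 9.03 on doxycycline, and Hamp, the liver hormone hepcidin, was at 1.79, 5.02, 7.07 and 5.88 against 11.09, 4.31, 6.84 and 7.73. On-doxycycline replicate 1 was the highest lung in both genes, and for Hamp AAV-hSPB single replicate 1 was also far below the other lungs. Without on-doxycycline replicate 1 the difference was -0.32 in place of -1.83 for Serpina1a and -1.36 in place of -2.56 for Hamp. It was -0.62 in place of -1.17 for Mgam, -0.49 in place of -1.25 for Ephx2 and -0.54 in place of -0.86 for Plin4. Il17b, an IL-17 family cytokine, was at 4.38, 4.13, 4.70 and 3.78 against 6.45, 6.31, 4.91 and 4.17, high in the 2 female on-doxycycline lungs, with 3 of 4 AAV-hSPB single lungs not above background. Its difference was -1.21 ± 0.40 (limma adjusted p = 0.306). Lung epithelial (5 measured) and endothelial and stromal genes (6 measured) each had a median of -0.01.

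Because AAV-hSPB single lungs had also been without doxycycline, they were set against lungs of untreated mice that lost it on day 94 (off-doxycycline, n = 4). The groups differ in vector and in time without doxycycline (90 days against 3 days before harvest). The effects of these cannot be told apart. No gene passed (0 of 773, 0%), and 127 had an unadjusted p under 0.05 (16.4%), 96 higher (12.4%) and 31 lower (4.01%). With lungs scaled to the median gene the split turned to 46 higher and 68 lower, and the count at an unadjusted p under 0.05 was 78 without off-doxycycline replicate 2. Without off-doxycycline replicate 4, however, 34 genes passed, 25 higher and 9 lower, and 139 genes were higher and 68 lower at an unadjusted p under 0.05. Both comparisons use the same AAV-hSPB single lungs and are given side by side. Of the class II and class I members that led against on-doxycycline, H2-DMa, H2-Eb1, Psmb9 and Tap1 differed less from off-doxycycline, by 0.13, 0.39, 0.17 and 0.02. The class II list had a median of 0.17 with 5 of 7 members higher. The class I list had a median of 0.15 with 10 of 11 higher, and the median of all genes was 0.095. The differences of Hsp90aa1 and Hspb1 were also smaller, at 0.01 and -0.28. The B cell list had a median of 0.70, with Cd79a 0.95 above off-doxycycline, and Cx3cr1 and Pik3ap1 differed by 0.82 and 0.42 (limma adjusted p = 0.132 and 0.0768). T cell genes had a median of 0.49, with 14 of 30 higher at an unadjusted p under 0.05 (12.4% of the panel). Ccl2, a monocyte chemokine, was -2.49 ± 0.74 below off-doxycycline (limma adjusted p = 0.139), with levels of 6.15 to 7.31 in AAV-hSPB single and 7.05 to 11.44 off doxycycline. Against on-doxycycline, off-doxycycline lungs had 0 calls and 96 genes (12.4%) at an unadjusted p under 0.05, 61 higher (7.89%) and 35 lower (4.53%), or 53 and 46 with lungs scaled to the median gene, when 1 gene, Il17b, passed as lower.

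**Figure D4:**
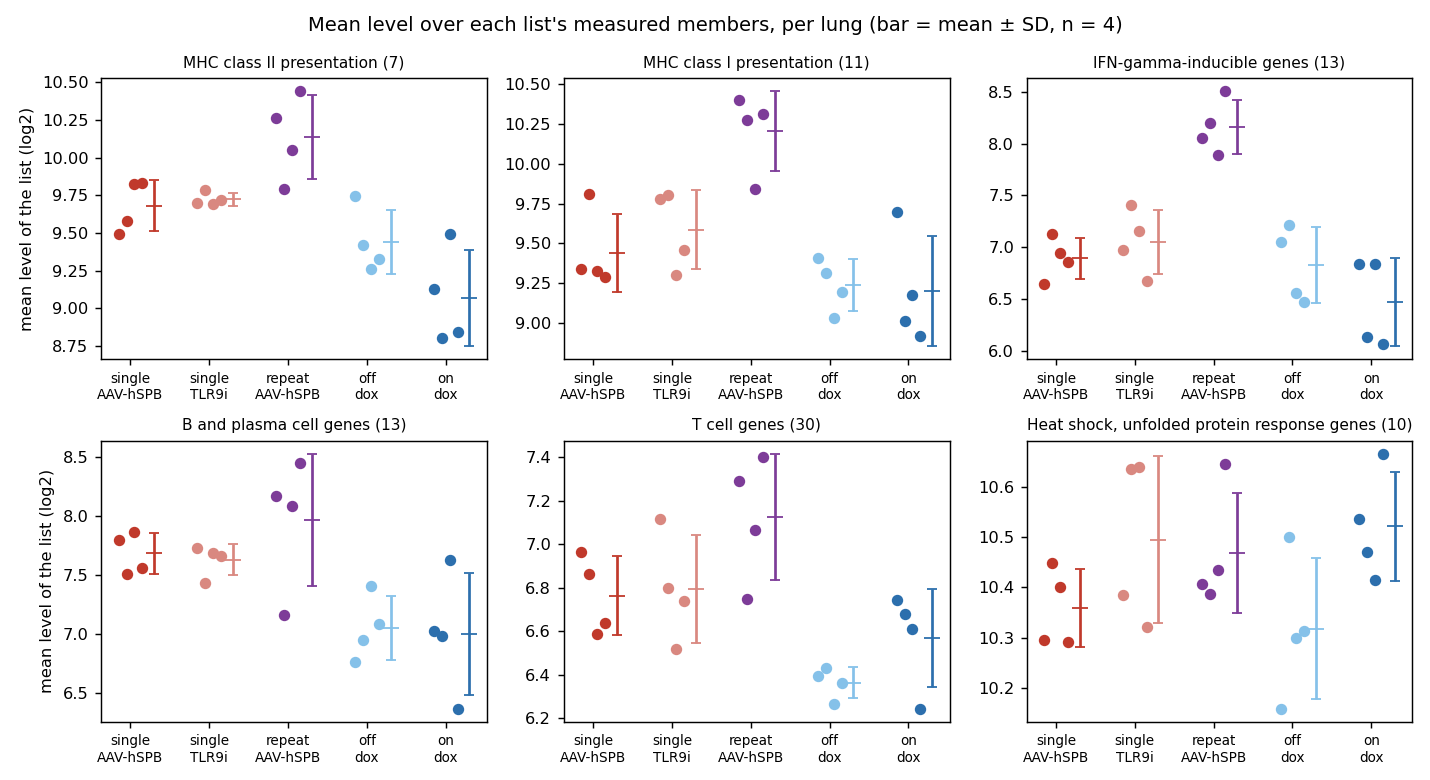
Mean log2 level over the measured members of 6 gene lists (y axis) in each lung of 5 groups at day 97, with the mean ± SD of 4 lungs beside the points. AAV-hSPB single lungs lie between 9.495 and 9.829 for class II genes, against 8.800 to 9.492 on doxycycline, and between 7.51 and 7.86 for B cell genes, against 6.36 to 7.63. The class I mean of on-doxycycline replicate 1 includes its high H2-Q10.

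A single dose of AAV-hSPBTLR9i, the vector variant that the labels mark TLR9i, was the next group set against AAV-hSPB single, and no gene passed the adjusted threshold (0 of 773, 0%). At an unadjusted p under 0.05 stood 8 (1.03%), 1 higher (0.129%) and 7 lower (0.906%), or 0 and 8 with lungs scaled to the median gene. The 24 genes with the smallest p against on-doxycycline differed by between -0.29 (Zbp1) and 0.39 (Mx1) from AAV-hSPBTLR9i single, with a median of 0.03. H2-DMa differed by -0.07, Cx3cr1 by 0.30 and Hspb1 by -0.24. Total recovered counts were higher in AAV-hSPBTLR9i single (862348 to 980805) than in AAV-hSPB single (622739 to 756539). Depth and vector therefore cannot be told apart here. A missed threshold does not show that the vectors act alike. Set against the same on-doxycycline lungs, AAV-hSPBTLR9i single had 2 calls (0.259%), H2-DMa and Psmb9, both higher and both lost with lungs scaled to the median gene or to 12 reference genes (0 calls each), and 83 genes (10.7%) at an unadjusted p under 0.05, 76 higher (9.83%) and 7 lower (0.906%), or 35 and 25 with lungs scaled to the median gene.

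Lungs given a further AAV-hSPB dose on day 90, 7 days before harvest, provide the one comparison with many calls: 4 genes (0.517%) were higher in AAV-hSPB single and 52 (6.73%) lower, 56 in all (7.24%). With all 12 reference genes the split was 21 higher and 27 lower. At an unadjusted p under 0.05 stood 168 (21.7%), 35 higher (4.53%) and 133 lower (17.2%), a split that turned to 101 higher and 89 lower with all 12 reference genes. With the compared groups fitted alone, 12 genes passed and all were lower. The groups differ in the number of doses and in the time since the last dose (97 against 7 days). The effects of these cannot be told apart. Class I genes were called lower in 10 of 11 cases, among them Psmb9 by -0.96 ± 0.16 and Tap1 by -1.09 ± 0.19 (limma adjusted p = 0.000926 and 0.0013). Of 13 interferon-gamma-inducible genes 7 were called lower, with Cxcl9 at -3.04, and 0 had a higher mean in AAV-hSPB single (median -1.197). In class II 2 of 7 were called lower (H2-DMa -0.54, H2-Eb1 -0.99), and 0 had a higher mean in AAV-hSPB single (median -0.388). Irf4 was lower by -1.47 (limma adjusted p = 0.00704) and Zbp1 by -1.61, whereas Cx3cr1 (-0.06) was not called.

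The sexes were compared by an interaction term on the same 8 lungs. Its fit held all 24 day 97 lungs, with a mean per group and sex. The term passed for 1 of 773 genes (0.129%), Tnfrsf25, the DR3 receptor that costimulates T cells. In females it was at 6.91 and 6.92 in AAV-hSPB single against 6.24 and 6.51 on doxycycline, and in males at 6.06 and 6.13 against 6.87 and 6.76. The order of the groups was thus opposite in the sexes, and the difference of differences was 1.26 ± 0.22 (limma adjusted p = 0.0394), a call lost with lungs scaled to the median gene (1.40, limma adjusted p = 0.088) and with 12 reference genes (1.33, limma adjusted p = 0.0976). Leaving out 1 of the 8 lungs at a time, the difference of differences stayed between 1.12 and 1.39, and the limma adjusted p ran from 0.00717 (without on-doxycycline replicate 2) to 0.352 (without on-doxycycline replicate 1) and the call held only without on-doxycycline replicate 2. At an unadjusted p under 0.05 stood 50 genes (6.47%), 10 with a difference that was more positive in females (1.29%) and 40 more positive in males (5.17%), or 26 and 29 with lungs scaled to the median gene. Ccr2 differed by -0.05 in females and 1.16 in males.

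At 3 h after the dose, in other mice, 3 AAV-hSPB lungs were set against 3 lungs given PBS. No gene passed (0 of 773, 0%), and 17 (2.2%) had an unadjusted p under 0.05, 10 higher (1.29%) and 7 lower (0.906%), or 7 and 10 with lungs scaled to the median gene. The 24 genes with the smallest p at day 97 differed at 3 h by between -0.56 (Cd79a) and 0.50 (Tap1), with a median of 0.02, and none had an unadjusted p under 0.05 there. The 3 h and day 97 tables were normalized separately, so levels are not compared between them.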

How the data were processed

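Right-lung total RNA of 33 samples was counted by nCounter for 773 mouse genes and 12 reference genes. The tested values are the log2 values deposited by the authors, with background handling and reference genes not given in the sources used here. The mean of Abcf1, Hprt, Mrps7, Nmt1, Oaz1 and Tbp, 6 of the reference genes, was the same in every day 97 lung of that table, whereas the linear signal values deposited by the authors in the series matrix follow all 12 and served as an alternative. Whole counts were recovered from the linear block (100% of values whole within 0.02) for depth, background and voom only.

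All 24 day 97 lungs were fitted together in limma 3.58.1 (R 4.3.3, lmFit, contrasts.fit, eBayes, 18 residual degrees of freedom), without filter or covariate, and the 9 lungs at 3 h separately (6 degrees of freedom). The fit was tested on simulated data. Each difference is the AAV-hSPB single mean minus the other mean, ± its SE. The sex interaction used a separate fit of the 24 day 97 lungs, with a mean per group and sex. Groups and sexes came from the labels. Members, comparisons and the 26 gene lists (25 with measured genes) were chosen with earlier results of these data known. The naming rule took the 24 smallest p where under 24 genes passed, up to 4 genes per list and a fixed immune set. Genes named beyond it (further list members, Tnfrsf25, Hamp and liver transcripts) were chosen after their values were seen, and some genes are not reported here. Alternatives were scaling, reference genes, a filter, an added constant, covariates, prior, sample set, voom and leaving out each lung. Promoters came from RefSeq tables (GRCm38.p6), matched by symbol. Python 3.11.15, pandas 2.3.3, numpy 2.4.6 and matplotlib 3.10.9 made tables and figures.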

Additional observations from a re-analysis of the deposited data

Results flagged for a closer look

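Single lungs stood far from the other 3 of their group in 6 of the values checked. In AAV-hSPB single, Hsp90aa1 was high in replicate 2 (gap of 0.928 of the group's range), Pdcd1lg2 was low in replicate 2 (0.884) and Casp1 was high in replicate 4 (0.927), with ranges that are small in all 3 cases. On doxycycline, Serpina1a (0.912), H2-Q10 (0.899) and Cyp2e1 (0.918) were high in replicate 1, the lung with high liver transcripts. Chance alone marks about 1 in 20 groups by this criterion, and 156 were checked.

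The effect of AAV-hSPB single against on-doxycycline differed between females and males for Tnfrsf25 by 1.26 log2 units in the interaction test, with 2 lungs per sex and group. The call was lost with lungs scaled to the median gene (limma adjusted p = 0.088) and with 12 reference genes (limma adjusted p = 0.0976).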

How the results depend on the processing

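No gene passed in AAV-hSPB single against on-doxycycline under 19 of 21 alternatives. The exceptions were voom (3 genes) and the fit without on-doxycycline replicate 3 (11 genes), and the fits that left out 1 lung gave 0 to 11. Genes at an unadjusted p under 0.05 numbered 46 to 108 when 1 lung was left out (82 with all). Against off-doxycycline the fits without 1 lung gave 0 to 34 calls, and against AAV-hSPB repeat 28 to 70 and 12 with the compared groups alone (56 as reported). The sex interaction gave 0 to 9 calls without 1 lung, and 0 calls under median-gene scaling or 12-gene scaling (0 and 0). For the named genes 13 values passed under an alternative only. Raised to background, Il23a, Il17f and Ifng each turned to -0.039. Over the fits without 1 lung, H2-Q10 ran from -1.971 to 0.566, Crp from -2.598 to 0.156 and Cyp2e1 from -1.2 to 0.463, positive only without on-doxycycline replicate 1. Cd4 ran from -0.0 to 0.232 and was -0.047 under median-gene scaling, and Ccl2 ran from -0.113 to 0.494. The causes of the other shifts were not tested. No paired analysis was possible because the titles carry only running sample numbers. The planned edgeR fit on recovered counts was not run. Scaling to 12 reference genes at 3 h was not run because those matrix columns were not used. Each AAV-hSPB single lung had 99 to 117 genes under 20 counts, for which counting error is relatively the largest.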
